A study of Mus musculus with 2 samples.

Results

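The genes described here are 42 homeobox genes that lie outside the Hox clusters, taken as a named list of the Iroquois, sine oculis (Six2, Six4, Six5), TALE, paired-type, Distal-less, Msx, Teashirt and related families. They are 42 of the 18193 genes to which GEO's platform annotation gives at least 1 probe set of their own, and they own 80 of 34945 such probe sets. Primary myoblasts, the cycling precursors of skeletal muscle fibres, were grown from newborn Sv129 mice on a laminin and collagen coating. The treated cells were exposed for 4 hours to 100 ng/ml of Wnt3a in DMEM with 2% horse serum, and the control cells spent the same 4 hours in that medium alone. The labels give no genetic alteration in either condition and do not state how many animals were pooled. RNA from each condition was read on 1 array, so every value is a single measurement, nothing here has a replicate check, and no p-value is given.

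Homeobox genes encode transcription factors that bind DNA through a homeodomain, and outside the Hox clusters they set the identity of limb, head, heart and muscle precursors in the embryo. In the muscle lineage, sine oculis family factors such as Six4 act with their Eya coactivators upstream of the myogenic factors, Lbx1 marks precursors that migrate into the limb, and Meis and Pbx proteins help MyoD to reach some of its target promoters. Wnt ligands such as Wnt3a stabilise β-catenin, which turns on target genes through TCF/LEF factors, and homeobox genes are among the genes that Wnt signals control in embryonic tissues.

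Most of the 42 genes differed little between the arrays, and 4 stood out. Irx3, Irx5 and Tshz3 were at least 1.5-fold higher with Wnt3a, and Prrx1 was at least 1.5-fold lower. Values are intensities on a linear scale, levels are log2(intensity + 1), and a difference is the Wnt3a level minus the control level on the gene's brightest probe set. A gene is called measured where that probe set reached a level of 6, an intensity of 63, on at least 1 array. The floor was set by brightness alone and says nothing about detection. By it 30 of the 42 genes were measured (71.4%), against 62.6% of all genes. Of the 30 members 27 were at the floor on both arrays, beside 11064 of all 11397 measured genes.

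Of the 30 measured genes 3 were at least 1.5-fold higher with Wnt3a, where 0.886% of 11397 measured genes were, and 1 was at least 1.5-fold lower, where 0.342% were. Together these were 13.3% of the measured members, against 1.23% of all measured genes. The members were chosen with earlier results of these data known, so such shares describe this list and not homeobox genes at large. Irx3 alone was past 2-fold, a size at which 0.254% of measured genes were higher, and no member was 2-fold lower, where 0.0614% of measured genes were. The median difference of the 30 genes was 0.047 and that of all measured genes was -0.0057. In all, 18 of the 30 (60.0%) were higher with Wnt3a and 12 lower, where 47.3% of all measured genes were higher. These counts take the sign of the brightest probe set for every gene. They include Irx1, Meox1 and Pitx1, at the floor on only 1 array, and Pbx3 and Pknox1, whose probe sets disagreed in sign. Scaled on the spike-in controls, 26 members were higher and 4 lower. The typical size of a difference, regardless of sign, was 0.12 for the members and 0.085 for all measured genes.

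**Figure D1:**
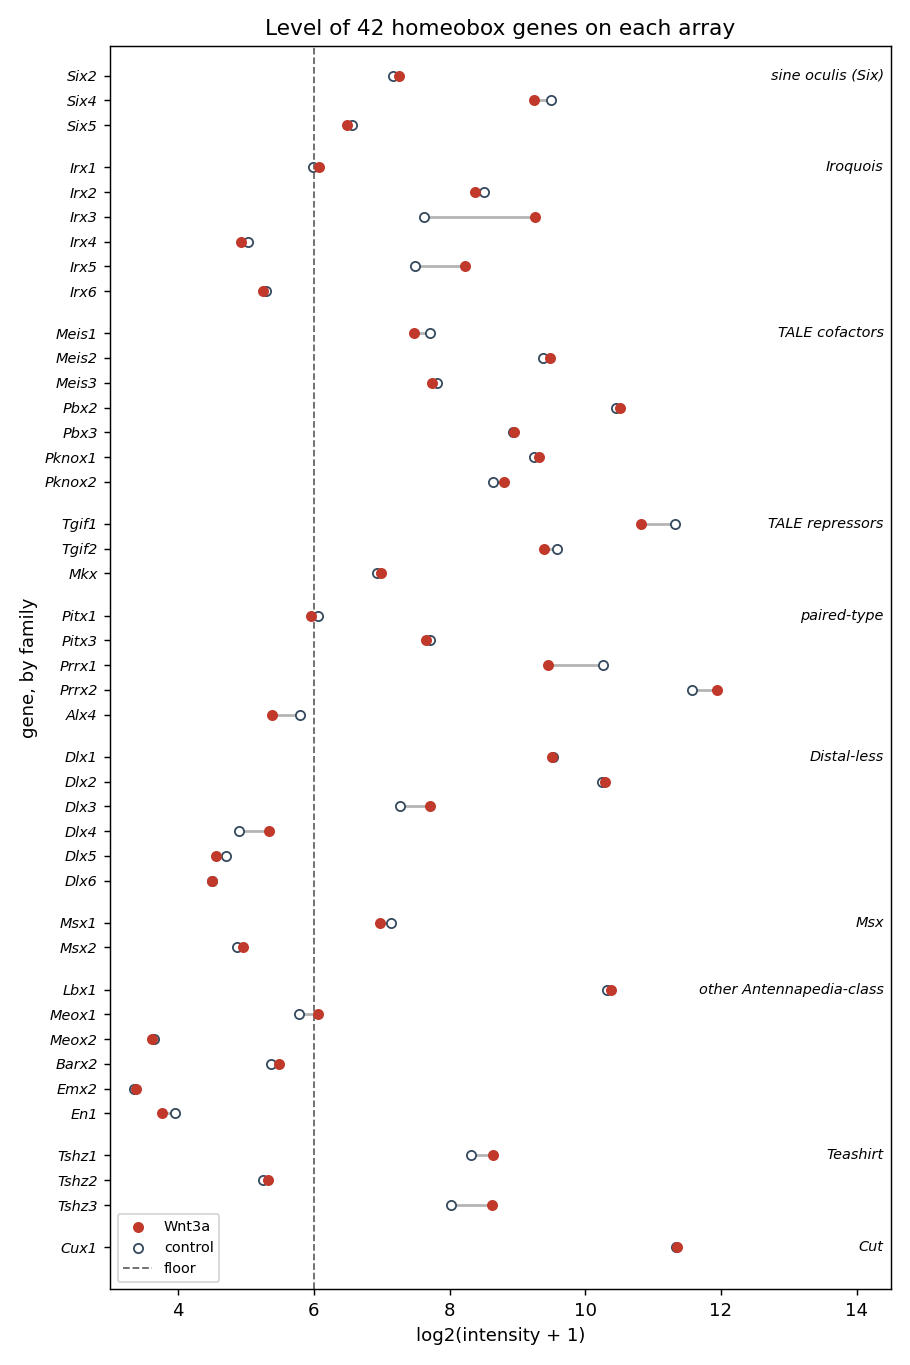
Level of each of the 42 genes on the Wnt3a array (filled) and the control array (open), as log2(intensity + 1) of the brightest probe set, by family; the dashed line is the floor of 6. The long bars are those of Irx3, Irx5, Prrx1 and Tshz3, and 12 genes lie left of the floor on both arrays.

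The scatter of differences depends on brightness, so each gene was also set against measured genes of like mean level, in steps of 1 on the log2 scale. The central 95% of measured genes spanned -0.33 to 0.33 over all levels, -0.38 to 0.43 between levels 7 and 8, and -0.24 to 0.25 between levels 11 and 12. Outside the range of their own step lay 8 of the 30 members (26.7%), against 5.05% of all measured genes, a share that this construction fixes. The 6 above it were Irx3, Irx5, Tshz3, Dlx3, Tshz1 and Prrx2, and the 2 below it were Prrx1 and Tgif1. Dlx3 and Tshz1 exceeded their upper limits of 0.43 and 0.31 only narrowly. A place outside the range is a description of these 2 arrays and carries no error rate for the treatment. The share of 26.7% also belongs to a list chosen with earlier results of these data known.

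**Figure D2:**
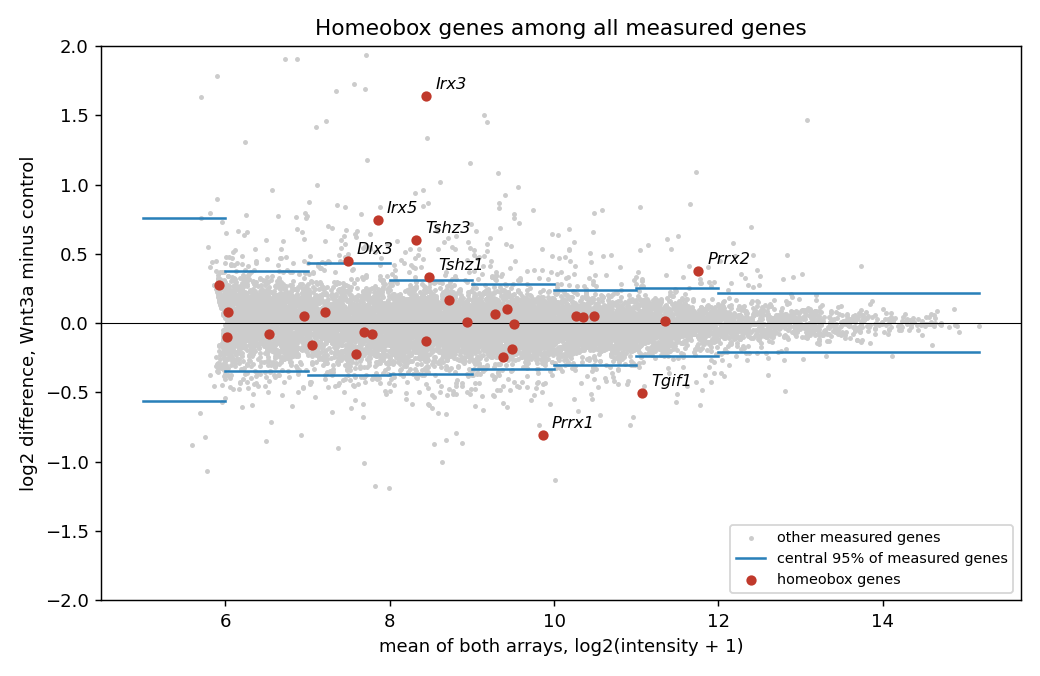
Difference, Wnt3a minus control on the log2 scale, against the mean level of both arrays for the 30 measured homeobox genes (red) and the other measured genes (grey), of which 9 lie beyond the axis limits of -2 and 2. Blue lines bound the central 95% of measured genes in each step of brightness; the 8 named genes fall outside them.

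Spread between probe sets of the same gene is the only repeat measurement, and it shows noise between probes, not between cultures. Of the 30 members 12 had at least 2 probe sets at the floor. In 10 of these (83.3%) all such probe sets had 1 sign, against 54.7% of the 5084 genes of that kind. The share of 83.3% rests on 12 genes of a list chosen with earlier results of these data known. The pooled SD between probe sets was 0.12 for these 12 members and 0.12 for all such genes. The members' value leans on Prrx1, whose own SD was 0.26, while the next largest was 0.11 in Pknox1. The equal values therefore do not show a like spread in the other members. The other 18 members, Irx3, Irx5 and Tshz3 among them, rested on 1 probe set at the floor.

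The Iroquois genes, which lie in a pair of clusters and pattern heart, limb and nervous system, held the largest difference. Irx3 had an intensity of 614 with Wnt3a against 196 in the control, levels of 9.26 and 7.62. This was a 3.11-fold difference (1.64 on the log2 scale), and 15 of the 11397 measured genes had a larger positive one. Irx5, its neighbour on chromosome 8, had 299 with Wnt3a against 178 in the control, levels of 8.23 and 7.48, and was 1.67-fold higher. Irx6, the remaining gene of that cluster, was under the floor on both arrays, at 5.25 with Wnt3a and 5.30 in the control.

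The cluster on chromosome 13 showed no such difference. Irx2 had levels of 8.38 with Wnt3a and 8.51 in the control, a difference of -0.13. Irx1 stood at the floor, at 6.07 with Wnt3a and 5.99 in the control, and Irx4, known from ventricular heart muscle, was under it at 4.92 and 5.03. Irx1 reached the floor on the Wnt3a array only, so its small positive difference gives no clear direction, though the count of 18 higher includes it. The 2 Iroquois genes past 1.5-fold were both from the chromosome 8 cluster.

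Genes beside Irx3 and Irx5 in chromosome order did not share their difference in size. Fto, the next gene with a probe set on the side of Irx3, differed by -0.04 (10.36 with Wnt3a, 10.40 in the control), and Aktip beyond it by 0.04. Crnde, a long noncoding RNA gene between Irx3 and Irx5, was under the floor on both arrays (5.66 with Wnt3a, 5.41 in the control, a difference of 0.25). On the far side of Irx6, Mmp2, a gelatinase gene, differed by 0.10.

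The promoter window of Irx3, 250 bases before to 50 after the start, is shown because Irx3 had the largest difference of the family. It is taken from RefSeq (GRCm38.p6, chr8:91801605-91801904, minus strand) and written 5′ to 3′ in the direction of transcription. Capitals would mark any of the motifs CTTTGAT or CTTTGAA or CTTTGTT or CTTTGTA (all TCF/LEF) or TAATTA (homeodomain) or TGACAG (Meis and Tgif proteins) on either strand, and the Irx3 window holds none of them.
Irx3: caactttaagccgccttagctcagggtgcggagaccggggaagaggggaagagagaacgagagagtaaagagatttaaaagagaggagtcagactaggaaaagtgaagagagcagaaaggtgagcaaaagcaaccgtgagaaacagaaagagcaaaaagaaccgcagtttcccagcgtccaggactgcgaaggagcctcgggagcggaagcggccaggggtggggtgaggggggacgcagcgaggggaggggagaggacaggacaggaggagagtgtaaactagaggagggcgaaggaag
The 4 TCF/LEF motifs share the letters CTTTG, and CTTTGTA can overlap a TAATTA. At least 1 of the 4 occurs in 16.9% of the 32851 windows of that length in the table. Counted by gene, it occurs for 13.3% of the 9229 measured genes with a window. The table held windows for 25 of the 42 genes. A TCF/LEF motif was found for 3 of them, Meis3, Six5 and Tgif1. The motif TGACAG was found for 4, En1, Six2, Six5 and Tgif1, in 19.2% of all windows and for 19.0% of the measured genes with a window.

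Among the paired-type genes, the paralogues Prrx1 and Prrx2, which mark limb and head mesenchyme, differed in opposite directions. Prrx1 had an intensity of 703 with Wnt3a against 1229 in the control, levels of 9.46 and 10.26, and was 1.75-fold lower (-0.81). All 5 of its probe sets at the floor were lower with Wnt3a, by -0.50, -0.63, -0.81, -0.81 and -1.18 (SD between probe sets 0.26), and one under the floor gave -0.27. A more negative difference was found in 14 of the measured genes. These included the airway epithelium markers Scgb1a1 (-2.43, the most negative of all) and Sftpc (-1.07), and the endothelial marker Tek (-0.82). Each of these markers was under the floor with Wnt3a. Prrx2 had 3931 with Wnt3a against 3034 in the control, levels of 11.94 and 11.57, and was 1.30-fold higher on its 1 probe set.

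Other genes of this class lay close to 0 or to the floor. Pitx3, active in differentiating muscle and in dopaminergic neurons, had levels of 7.65 with Wnt3a and 7.72 in the control. Pitx1, the hindlimb identity gene, was at 5.96 with Wnt3a and 6.07 in the control, which is at the floor in the control only. Alx4, a limb and skull patterning gene, was under the floor on both arrays (5.38 with Wnt3a, 5.80 in the control).

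The promoter window of Prrx1 (RefSeq, GRCm38.p6, chr1:163313601-163313900, minus strand) is shown because Prrx1 was the lowest member with Wnt3a. The capitals mark the one match to the motifs named above, TAATTA, the core that many homeodomain proteins bind.
Prrx1: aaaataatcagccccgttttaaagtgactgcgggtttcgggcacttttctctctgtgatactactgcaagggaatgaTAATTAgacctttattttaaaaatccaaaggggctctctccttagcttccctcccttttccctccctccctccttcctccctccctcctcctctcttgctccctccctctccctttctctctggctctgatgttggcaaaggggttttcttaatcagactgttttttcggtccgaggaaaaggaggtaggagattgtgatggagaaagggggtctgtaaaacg
The match spans bases 78 to 83 of the 300, on the upstream side of the start. TAATTA, which reads the same on both strands, was present in 5.29% of all windows. Counted by gene, it was present for 2.96% of the measured genes with a window. Among the 25 matched members it was present for 3, Prrx1, Emx2 and Msx2. Emx2 and Msx2 were under the floor on both arrays. A match describes the letters and does not show binding.

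Markers of mesenchymal cells were set beside Prrx1, since Prrx1 is best known from such cells. Of 9 fibroblast and fibro-adipogenic markers with a probe set only Col3a1 reached the floor, at 13.19 with Wnt3a and 13.42 in the control (-0.24), with -0.54 on a second probe set at the floor (9.75 and 10.29). The defining markers Pdgfra (4.72 with Wnt3a, 4.77 in the control), Col1a1 (4.86 and 4.89), Dcn and Lum were under it on both arrays. The summed intensity of the 9 markers was 9619 with Wnt3a and 11266 in the control, a ratio of 0.854. Nearly all of that sum came from Col3a1, so the ratio follows that gene and not the 9 markers jointly. Of 5 tendon markers only Scx was measured, at 7.98 with Wnt3a and 8.31 in the control. The summed intensities of the 5 were 347 and 408, for the most part from Scx. The part of these markers in the Prrx1 difference was not tested. In bulk RNA, fewer cells of a type and less RNA per cell cannot be told apart.

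The Teashirt genes encode zinc finger proteins that also carry a homeodomain. Tshz3, needed for smooth muscle of the ureter, had an intensity of 394 with Wnt3a against 260 in the control, levels of 8.62 and 8.03. It was 1.51-fold higher and so lay just inside the 1.5-fold line, where Tgif1 at 1.42-fold and Dlx3 at 1.37-fold lay just outside it. Tshz1 was 1.26-fold higher, with differences of 0.33 and 0.29 on its 2 probe sets, at 8.65 with Wnt3a and 8.31 in the control on the brighter one. Tshz2 was under the floor on both arrays with all 3 of its probe sets. Both measured Teashirt genes were thus higher with Wnt3a.

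**Figure D3:**
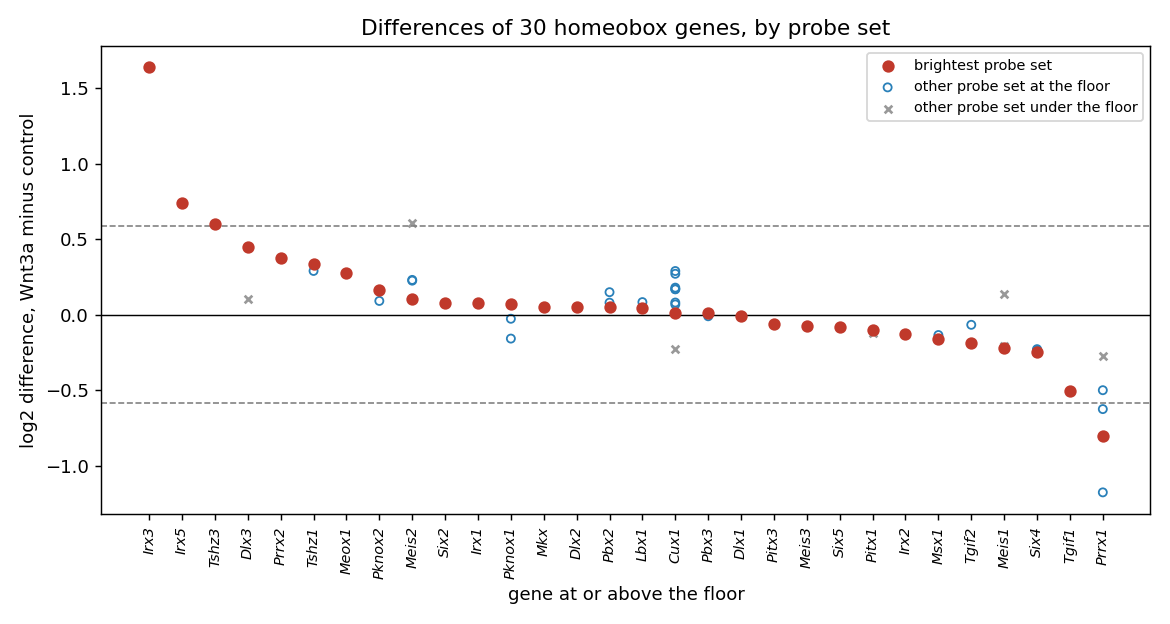
Difference, Wnt3a minus control on the log2 scale, for each probe set of the 30 measured genes, ordered by the brightest probe set (red); open blue circles are further probe sets at the floor and grey crosses those under it. Dashed lines are 1.5-fold in either direction, which Irx3, Irx5 and Tshz3 pass upward and Prrx1 passes downward.

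TALE proteins, named for an extended loop in the homeodomain, include the Meis, Pbx and Pknox cofactors that bind DNA together with Hox and other factors. All 7 listed cofactors were measured, with differences from -0.22 to 0.16. None differed by 1.5-fold, where 1.23% of all measured genes did. Meis1 was the lowest, at 7.48 with Wnt3a and 7.71 in the control, while its 2 probe sets under the floor gave -0.21 and 0.14. Meis2 was higher by 0.10 on its brightest probe set, at 9.48 with Wnt3a and 9.38 in the control, by 0.23 on each of a further pair and by 0.61 on one under the floor. Pknox2 was at 8.81 with Wnt3a and 8.64 in the control, and Meis3 at 7.74 and 7.82.

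Pbx2 and Pbx3, the partners of Meis proteins, were at nearly the same level on both arrays. Pbx2 had 10.51 with Wnt3a and 10.46 in the control, with differences of 0.05, 0.15 and 0.08 on its 3 probe sets. In Pbx3 the probe sets disagreed in sign, at 0.01 and -0.01. Pknox1 was the other member whose probe sets disagreed, with 0.07, -0.03 and -0.16 in order of brightness, so no direction can be given for either gene.

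The TALE repressors Tgif1 and Tgif2, which dampen transcription driven by TGF-β and SMAD proteins, were both lower with Wnt3a. Tgif1 had an intensity of 1803 with Wnt3a against 2558 in the control, levels of 10.82 and 11.32, and was 1.42-fold lower on its 1 probe set. Tgif2 was at 9.39 with Wnt3a and 9.58 in the control, with differences of -0.19 and -0.07 on its probe sets. Mkx, a tendon factor that represses muscle genes, was at 6.98 with Wnt3a and 6.93 in the control.

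Genes for proteins that work with Tgif factors, the corepressors Ctbp1, Ctbp2, Sin3a and Sin3b, the deacetylases Hdac1 and Hdac2, and the TGF-β effectors Smad2 and Smad3, were all measured. None of these 8 differed by 1.5-fold, where 1.23% of all measured genes did. With Wnt3a 3 were higher (37.5%) and 5 lower, where 47.3% of all measured genes were higher. Their median difference was -0.03. The largest differences were those of Hdac2 (-0.25, and -0.21 on another probe set) and Smad2 (-0.21 and -0.33). Sin3a followed at -0.12, with -0.20 and -0.32 on dimmer probe sets.

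The sine oculis family genes Six2, Six4 and Six5, whose products act with Eya coactivators early in myogenesis, showed small differences. Six4, the member best known from muscle, had an intensity of 608 with Wnt3a against 721 in the control, levels of 9.25 and 9.50. Its 4 probe sets were all at the floor and gave -0.23 to -0.25 (SD 0.011), a 1.18-fold lower value. Six2, which maintains kidney progenitors, differed by 0.08 (7.25 with Wnt3a, 7.17 in the control), and Six5, which lies beside the myotonic dystrophy gene, by -0.08 (6.49 and 6.57).

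Of the cofactors of these proteins Eya1, Eya3 and Eya4 were measured. None differed by 1.5-fold, where 1.23% of all measured genes did. Eya1 was the highest of them, at 8.18 with Wnt3a and 7.89 in the control, with differences of 0.30 and 0.18 on its probe sets at the floor. Eya4 differed by 0.12 and Eya3 by -0.14. Eya2, Dach1 and Dach2 were under the floor on both arrays.

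Distal-less genes, which pattern the jaw, forebrain and limb bud, lie in pairs, and 3 of the 6 were measured. Dlx3, known from skin, tooth and placenta, had an intensity of 209 with Wnt3a against 153 in the control, levels of 7.72 and 7.27, and was 1.37-fold higher. A dimmer probe set of Dlx3, under the floor, gave 0.11. Its neighbour on chromosome 11, Dlx4, was under the floor on both arrays, at 5.33 with Wnt3a and 4.89 in the control, with a difference of 0.00 on a second probe set. Dlx1 (9.51 with Wnt3a, 9.52 in the control) and Dlx2 (10.29 and 10.24), the forebrain interneuron pair, differed by -0.01 and 0.05. Dlx5 and Dlx6, the bone and jaw pair, were under the floor on both arrays.

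Msx1 keeps muscle precursors undifferentiated when it is overexpressed, and Msx2 is a skull gene that responds to BMP. Msx1 was at 6.97 with Wnt3a and 7.13 in the control, and its 2 probe sets gave -0.16 and -0.14. Msx2 was under the floor on both arrays.

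The remaining Antennapedia-class genes include regulators of muscle precursors. Lbx1, the gene of migrating limb muscle precursors, was well above the floor, with 10.37 with Wnt3a and 10.33 in the control and differences of 0.05 and 0.08 on its 2 probe sets. Meox1, a somite gene, was at 6.06 with Wnt3a and 5.79 in the control, so it reached the floor only with Wnt3a, and against the floor it was at least 1.05-fold higher. Meox2, Barx2, Emx2 and En1 were under the floor on both arrays, none above 5.48. Cux1, a Cut-class factor linked to cell cycle progression, was at 11.35 with Wnt3a and 11.34 in the control on its brightest probe set. All 8 of its probe sets at the floor were higher with Wnt3a, by 0.01 to 0.29, while one under the floor gave -0.23.

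**Figure D4:**
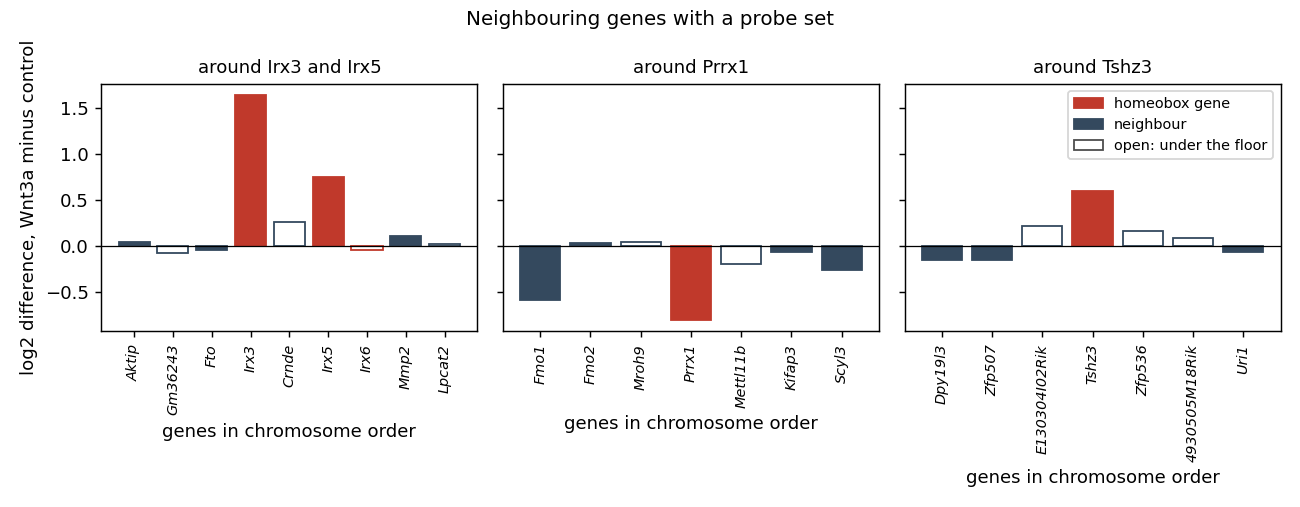
Difference, Wnt3a minus control on the log2 scale, for the 4 homeobox genes past 1.5-fold and the neighbouring genes with a probe set, in chromosome order; red bars are homeobox genes, and open bars are genes under the floor on both arrays. Irx3 and Irx5 stand above genes that differ by 0.253 or less in size, and beside Prrx1 the gene Fmo1 is lower too.

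Around Prrx1 on chromosome 1 the neighbours with a probe set on either side, Mroh9 (0.04) and Mettl11b (-0.20), were under the floor. Fmo1, a flavin monooxygenase gene and the third such gene on the side of Mroh9, was lower with Wnt3a (6.03 against 6.62 in the control, -0.59), while Fmo2 between them differed by 0.03. On the other side Kifap3 differed by -0.07 and Scyl3 by -0.27. Around Tshz3 on chromosome 7 the measured neighbours Dpy19l3, Zfp507 and Uri1 differed by -0.16, -0.16 and -0.07, opposite in sign to Tshz3. The 3 neighbours under the floor, E130304I02Rik, Zfp536 and 4930505M18Rik, had its sign, at 0.21, 0.16 and 0.08.

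A wider list held 129 further homeobox genes outside the Hox clusters. Of these 107 had a probe set of their own here and 36 were measured (33.6%). With Wnt3a 23 were higher (63.9%), 12 lower and 1 equal, where 47.3% of all measured genes were higher. None was 1.5-fold apart, where 1.23% of all measured genes were, so none among 36 says little. The median difference was 0.075, beside 0.047 for the 30 members. Regardless of sign, the typical size was 0.12 in both lists. Zeb1, a repressor of epithelial genes, was 1.45-fold higher, at 8.86 with Wnt3a and 8.32 in the control, but its other probe set at the floor gave 0.04. Hlx, a gut and liver gene, was 1.35-fold higher (8.39 with Wnt3a, 7.96 in the control).

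Zfhx2 (0.28), Vsx1 (0.28, at the floor with Wnt3a only), Satb1 (0.27, and 0.22 on a second probe set) and Shox2 (0.26) followed in size. Pax7, the homeodomain factor of satellite cells, was at 11.08 with Wnt3a and 11.20 in the control, with -0.12 and 0.12 on its probe sets. Its relative Pax3 was under the floor on both arrays.

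The cells carried the markers of their label. All 8 myoblast markers were measured, and their summed intensity was 30285 with Wnt3a and 29608 in the control. These near-equal sums hide differences of both signs, as 5 of the markers were higher with Wnt3a and 3 lower. None of them was past 1.5-fold, where 1.23% of all measured genes were. Myf5 (0.49) and Des (0.32) lay above the range of their own step of brightness. Itga7 (-0.26) lay just below its lower limit of -0.24. A second Des probe set, under the floor, gave -0.09. Genes outside the range were 37.5% of the 8 myoblast markers, against 5.05% of all measured genes. The marker list was chosen with earlier results of these data known. Of 4 genes known as feedback targets of Wnt signalling, Axin2 was at 10.25 with Wnt3a and 6.64 in the control. Znrf3 differed by 0.19, Lef1 by -0.13 and Nkd1 by -0.20. By sign 2 were higher and 2 lower, and only Axin2 was past 1.5-fold. Nkd1 was at the floor in the control only, and a second Lef1 probe set, under the floor, gave 0.12. Of 5 airway epithelium markers, Scgb1a1 (5.96 with Wnt3a, 8.39 in the control) and Sftpc (5.24 and 6.31) were lower with Wnt3a, Epcam was at 7.61 and 7.47, and Krt18 and Cdh1 were under the floor. The summed intensity of these 5 was 349 with Wnt3a and 642 in the control. Sums over endothelial, smooth muscle, leukocyte and Schwann cell markers had ratios of 0.857, 0.886, 0.953 and 1.07, Wnt3a over control. Most of the smooth muscle sum came from Cspg4, which differed by -0.22. Among the endothelial markers Tek was lower with Wnt3a, at 5.34 against 6.16 in the control (-0.82, at the floor in the control only). The part of these markers in the differences above was not tested.

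The spike-in controls, which are meant to be added in equal amounts, were lower on the Wnt3a array in all 42 of their probe sets, with a median of -0.19, while the median over all probe sets was 0. Scaling on them adds 0.19 to every difference, and the median over all measured genes then becomes 0.19. The 4 genes past 1.5-fold stayed past it, with Prrx1 at -0.62, and Dlx3 joined them at 0.64, where 1.89% of measured genes were higher and 0.145% lower. Negative differences smaller than this shift, such as those of Irx2, Msx1 and Tgif2, turned positive, so the direction of such genes is relative to the bulk of genes.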

How the data were processed

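Gene expression was measured on 1 Affymetrix array per condition from biotin-labelled cRNA, per the labels' protocols. The deposited table holds 1 intensity per probe set and array, for 45101 probe sets. The authors' tools were RMA, affy and limma, per the submitters' processing notes, with no versions or settings. The deposited intensities ran from 7.07 to 36604 with Wnt3a and from 7.09 to 37075 in the control, so they are linear, with medians of 58.7 and 57.9. How they left the log scale that RMA gives, and the genome build, are unstated in the sources used here.

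The 64 control probe sets were left out, and of the others 34945 belong to 1 gene, 932 to several and 9160 are unnamed here in GEO's platform annotation. Differences are log2(intensity + 1), Wnt3a minus control, on the probe set with the highest mean, with a floor of 6. With 1 array per condition no test was run, and the number of arrays limits the precision. A gene counts as past the line at 1.5-fold. The members and lists were chosen with earlier results of these data known. Every member is named, and those past 1.5-fold or with probe sets of unlike sign at the floor are given by probe set. Of the other homeobox genes the 6 with the largest differences, Pax7 and Pax3 are named, and 3 further genes of that rule were not analysed here. Of the 14 partner genes the 4 with the largest differences are named (Eya1, Hdac2, Smad2 and Eya3), and Eya4 and Sin3a were added after their values were seen. Neighbours and promoter windows come from RefSeq tables of GRCm38.p6, neighbours are those of the members past 1.5-fold, and the windows shown are those of the members with the largest positive and negative difference, all chosen after their values were seen. Alternatives changed the floor, pseudocount, probe set rule, normalization and fold. The procedure was tested on simulated data. Scripts ran in pandas 2.3.3, statsmodels 0.14.6 and numpy 2.4.6 under Python 3.11.15, with figures from matplotlib 3.10.9.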

Additional observations from a re-analysis of the deposited data

How the results depend on the processing

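No paired analysis was possible because each condition has 1 array and the result comes from no test. Counts of members past the line were 3 higher and 1 lower under the other floors, no pseudocount, the mean of all probe sets, the removal of probe sets that can match several transcripts, loess and quantile normalization. A pseudocount of 16 left 2 higher, without Tshz3, and 1 lower. The fold itself sets the counts: at 2-fold 1 member was higher and 0 lower, and where a ratio of 5 to 4 was enough 6 were higher and 2 lower. Spike-in scaling gave 4 higher and 1 lower, a median difference of 0.24 for the members and one of 0.27 for the other homeobox genes, since it adds the same shift to each gene. No member past 1.5-fold changed sign under the 11 alternatives of floor, probe set, pseudocount and normalization. Irx3 lay between 1.57 and 1.83, Irx5 between 0.70 and 0.93, Tshz3 between 0.57 and 0.79, and Prrx1 between -0.81 and -0.62. Irx3, Irx5 and Tshz3 have 1 probe set each, at the floor on both arrays. The floor and probe set alternatives therefore could not alter their differences, and only pseudocount and normalization could. Of the 284 differences recomputed for measured members without spike-in scaling, 3 moved by more than the pooled SD between probe sets of 0.12. As means over all probe sets Meis2 was at 0.29 and Dlx3 at 0.28, and with values raised to the floor Meox1 was at 0.064. Many of the 284 could not move, so their number is no measure of stability. A change in which genes pass the floor leaves each difference as it was. The probe set rules cannot alter a member with 1 probe set. Signal near the floor limits Irx1, Pitx1 and Meox1, and 12 members under it have no usable difference.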
